A study of Mus musculus with 17 samples.

Results

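The 33 genes described here encode the enzymes and regulators by which liver makes fatty acids, lengthens and desaturates them, and joins them to glycerol as triglyceride. They were the genes of a fixed list of mouse symbols, each found in the deposited table through its Ensembl identifier, and made up 33 of the 52545 genes in that table. The series measured RNA in liver tissue free of tumor from 17 C57BL/6J males, all 32 weeks old, with 1 library per mouse. In the CLDN1 mAb group (n = 6), mice had been given DEN (diethylnitrosamine, a liver carcinogen) once at 100 mg/kg in week 1 and fed CDA-HFD (a high-fat diet without choline and with defined amino acids), and received 500 µg of a monoclonal antibody against claudin-1 by intraperitoneal injection 1 time per week for 16 weeks. In the Vehicle Control group (n = 6), DEN and CDA-HFD were the same and PBS was injected on the same schedule. The Regular diet group (n = 5) had neither DEN, CDA-HFD nor injections. Carcinogen, diet and injections came together, so their parts in any difference from Regular diet cannot be told apart, and no group had the antibody without DEN and CDA-HFD. Each p-value measures the spread between these mice.

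Liver turns surplus carbohydrate into fat by sending citrate out of mitochondria, splitting it to acetyl-CoA, carboxylating that to malonyl-CoA, and building palmitate from malonyl-CoA on fatty acid synthase. Elongases and desaturases then set chain length and double bonds, and a chain of acyltransferases and a phosphatase adds the products to glycerol. Most of these genes are known targets of SREBP-1c, which responds to insulin, and of ChREBP, which responds to glucose metabolites.

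Depth, estimated from the smallest step between low values, was 27.7 to 59.5 M fragments per library. All 33 genes had a value above 0 in every library and passed the filter on low values, as did 18624 genes in all. Values are the authors' normalized counts, and every adjusted p of a gene is from limma, adjusted over all 18624 genes, with 0.05 as the threshold. Regular diet replicate 1 stood apart from the other 4 of its group: it had the largest deposited total (74.6 M, against 29.7 M in the smallest of all) and the lowest limma array weight of the 17 (0.0851). Its deviations from the group means followed transcript length (Spearman rho -0.42 over 18588 genes) and GC content (0.37). In CLDN1 mAb replicate 1 these values were -0.30 and 0.16, and in Vehicle Control replicate 1 -0.037 and -0.45. What lay behind such trends, and their part in the values of single genes, was not tested. All 15 measured hepatocyte markers were above 0 in every library, although the albumin gene Alb was listed at 0 in all 17. Their summed level was 1723790 to 3252480 in CLDN1 mAb, 709497 to 3097910 in Vehicle Control and 2713320 to 7789020 in Regular diet, the highest again being Regular diet replicate 1. Of the markers of other cells, 8 of 12 macrophage, 7 of 8 T and NK cell, 7 of 9 fibroblast and stellate cell, 6 of 6 cholangiocyte and 5 of 5 cycling cell markers were higher than in Regular diet in both CLDN1 mAb and Vehicle Control, while 2 macrophage markers, Clec4f and Marco, were lower in both. Of 6 endothelial markers, 3 were lower in CLDN1 mAb and 2 in Vehicle Control. Of 5 B cell markers, 0 were called in CLDN1 mAb and 1 was higher in Vehicle Control. Of 4 tested adipocyte markers, 1 was higher in both, 2 were lower in CLDN1 mAb and 3 in Vehicle Control, and the adipocyte hormone gene Lep was listed at 0 throughout Vehicle Control and Regular diet. Beside these counts, 24.8% of all tested genes were higher and 14.1% lower in CLDN1 mAb, and 29.8% higher and 20.7% lower in Vehicle Control. The B cell share in Vehicle Control (20% higher) was below that of all genes. In bulk tissue, fewer hepatocytes and less RNA per hepatocyte cannot be told apart.

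Promoters were read from a table of RefSeq sequence (GRCm38.p6), in which 37 promoters of 26 of the genes were matched; those of Scd1, Scd2, Elovl3, Fads1, Gpat4, Dgat1 and Dgat2 were not analysed here. Shown are the 250 bases before the start of Fasn and Thrsp, both lower in DEN and CDA-HFD mice, and of Fads3, which was higher. Also shown are those before the downstream start of Mlxipl, the 1 promoter with an exact match to the SREBP element searched. Capitals mark the CCAAT box (CCAAT on either strand, the site bound by NF-Y) in the first 3 and the SREBP element (TCACNCCAC on either strand) in the last.
Fasn (chr11:120824548-120824797, minus strand): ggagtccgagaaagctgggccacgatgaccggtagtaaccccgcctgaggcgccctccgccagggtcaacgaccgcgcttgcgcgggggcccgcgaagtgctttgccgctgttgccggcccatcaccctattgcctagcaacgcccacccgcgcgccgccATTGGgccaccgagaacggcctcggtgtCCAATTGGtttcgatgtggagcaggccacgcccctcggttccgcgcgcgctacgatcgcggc
Thrsp (chr7:97417551-97417800, minus strand): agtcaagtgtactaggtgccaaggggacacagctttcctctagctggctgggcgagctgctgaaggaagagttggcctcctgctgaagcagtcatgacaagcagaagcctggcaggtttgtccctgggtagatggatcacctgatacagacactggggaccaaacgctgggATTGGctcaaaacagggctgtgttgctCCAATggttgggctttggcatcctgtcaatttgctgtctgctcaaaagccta
Fads3 (chr19:10041298-10041547, plus strand): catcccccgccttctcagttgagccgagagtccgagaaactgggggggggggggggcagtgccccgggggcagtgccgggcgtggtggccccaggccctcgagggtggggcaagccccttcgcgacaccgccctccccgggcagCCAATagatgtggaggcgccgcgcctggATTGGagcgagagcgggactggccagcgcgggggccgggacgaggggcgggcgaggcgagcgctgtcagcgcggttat
Mlxipl (chr5:135106641-135106890, plus strand): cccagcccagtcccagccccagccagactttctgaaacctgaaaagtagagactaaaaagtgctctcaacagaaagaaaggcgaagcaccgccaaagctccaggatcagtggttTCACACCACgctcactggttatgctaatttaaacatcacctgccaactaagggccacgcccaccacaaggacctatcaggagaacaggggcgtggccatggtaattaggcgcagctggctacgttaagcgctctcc
In Fasn the CCAAT boxes began 90, 62 and 59 bases before the start, and the last 2 overlap. Thrsp had one on the other strand at 79 bases and one on the listed strand at 52 bases, and Fads3 had one on the listed strand at 106 bases and one on the other strand at 78 bases. A CCAAT box was present in 15 of the 37 promoters, against 33.85% of all 32851 promoters of that length. The SREBP element lay 136 bases before the Mlxipl start and in 1.053% of all promoters. The E-box CACGTG, searched on both strands, was found in 4 of the 37 (Elovl5, Lpin2, Mlxipl and Slc25a1) and in 6.021% of all, and the GC box GGGCGG in 20 of the 37 and in 32.742% of all. These are exact matches of letters and not measured binding sites, and sites that differ from these letters or lie farther away were not searched.

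Livers of DEN and CDA-HFD mice held less RNA of most of these genes than Regular diet livers, with Elovl3, Scd1 and Thrsp lowest relative to Regular diet and Elovl7, Scd2 and Fads3 highest. In CLDN1 mAb against Regular diet, 18 of 33 were lower, which is 54.5% against 14.1% of all tested genes, and 5 were higher, which is 15.2% against 24.8%. In Vehicle Control against Regular diet, 22 were lower (66.7%, against 20.7% of all genes) and 5 higher (15.2%, against 29.8%). The 5 higher genes were Elovl7, Scd2, Fads3, Agpat1 and Lpin3 in both. Past the threshold in neither comparison were Elovl1, Fads1, Fads2, Lpin1, Lpin2 and Dgat1, and Aacs, Gpam, Agpat3 and Dgat2 passed only in Vehicle Control, a difference between the groups that was not past the threshold for any of them. All libraries lay below Regular diet for 18 genes in CLDN1 mAb (10.4% of all tested genes) and 18 in Vehicle Control (10.5%), and above it for 5 in CLDN1 mAb (18.6%) and 4 in Vehicle Control (19.1%). Both comparisons share the 5 Regular diet libraries. The median log2 fold change over the 33 genes was -1.08 in CLDN1 mAb and -1.46 in Vehicle Control, beside 0.01 and 0.04 over all tested genes. Centring each library on its hepatocyte markers, an alternative added after the data were seen, moved the median of all genes to 0.72 in CLDN1 mAb and 1.32 in Vehicle Control, and left 9 of the 33 lower (27.3%, against 1.8% of all genes) and 8 higher (24.2%, against 32.4%) in CLDN1 mAb. In Vehicle Control it left 9 lower (27.3%, against 2.06%) and 10 higher (30.3%, against 67.7%), so the share of higher genes was below that of all genes in both.

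**Figure D1:**
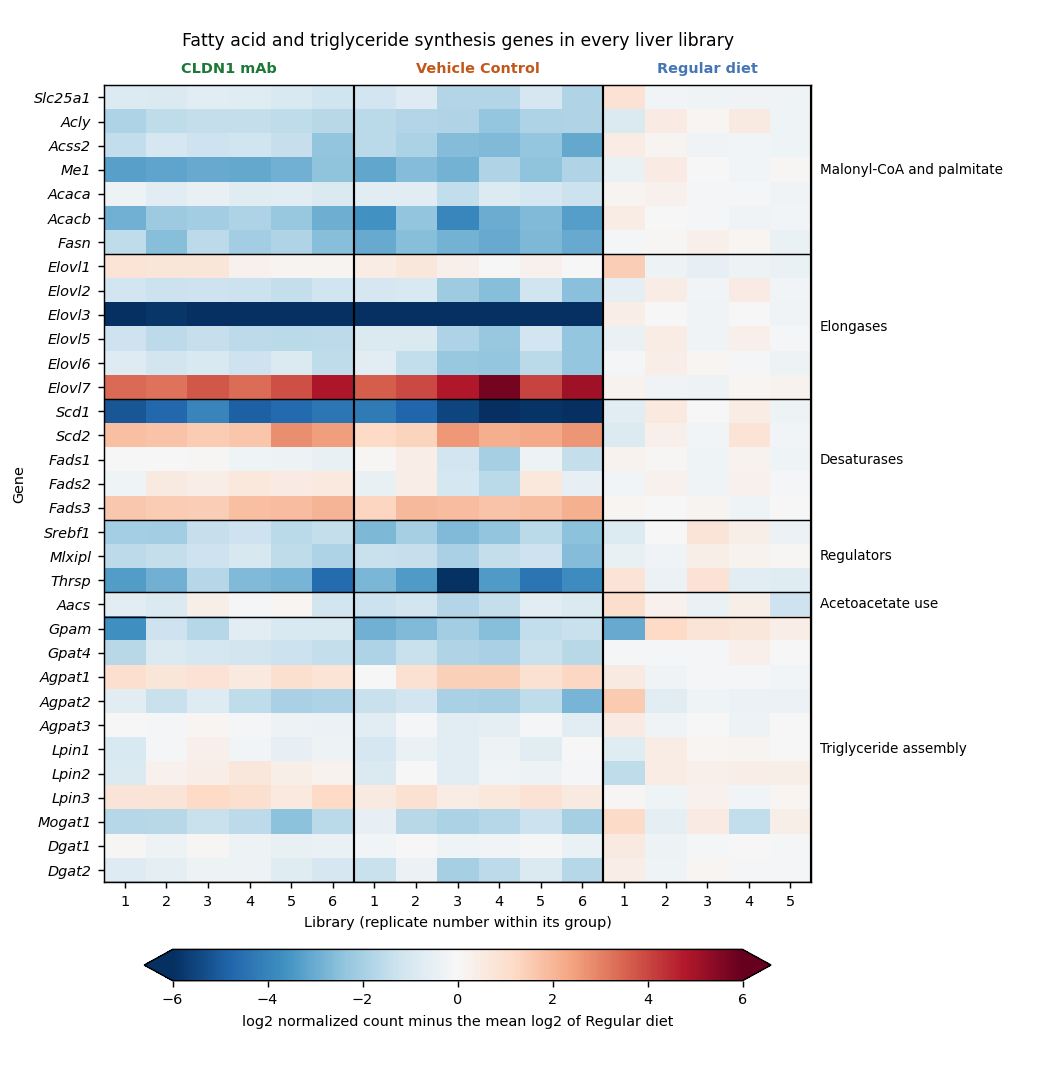
Heat map of the 33 genes (rows, by role) in the 17 libraries (columns, by group and replicate number), coloured by log2 normalized count minus the gene's mean log2 in Regular diet, with the scale ending at 6 either way. Elovl3 and Scd1 are dark blue in both DEN and CDA-HFD groups, Elovl7 is dark red, and Regular diet replicate 1 differs from its group in Gpam, Lpin2, Agpat2 and Elovl1.

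The 7 genes that supply and build palmitate were lower in both DEN and CDA-HFD groups. Of all genes, 14.1% were lower in CLDN1 mAb and 20.7% in Vehicle Control. Relative to the hepatocyte markers, Acaca (0.11 in CLDN1 mAb and 0.27 in Vehicle Control) and Slc25a1 (-0.14 and -0.094) passed in neither group. Fasn encodes fatty acid synthase, which assembles palmitate. It had 6140, 9518 and 12355 normalized counts as the lowest, median and highest of CLDN1 mAb, 4390, 4796 and 6178 in Vehicle Control, and 33825, 37758, 44216, 38943 and 27652 in Regular diet. Every DEN and CDA-HFD library lay below every Regular diet library. Relative to Regular diet, the log2 fold change was -2.01 ± 0.20 in CLDN1 mAb (SE, adjusted p = 4.4e-07) and -2.86 ± 0.20 in Vehicle Control (adjusted p = 6.32e-09).

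Acacb and Acaca encode the 2 acetyl-CoA carboxylases: ACC2 at the mitochondrial membrane, whose malonyl-CoA restrains fatty acid oxidation, and ACC1 in the cytosol, which feeds synthesis. Acacb had 721, 1178 and 1533 counts (lowest, median, highest) in CLDN1 mAb, 365, 622 and 1060 in Vehicle Control, and 7483, 5473, 5212, 4727 and 4989 in Regular diet. No DEN and CDA-HFD library came near the Regular diet range, and the log2 fold change was -2.36 ± 0.26 in CLDN1 mAb (adjusted p = 1.31e-06) and -3.14 ± 0.26 in Vehicle Control (adjusted p = 3.54e-08). Acaca was lower by less, with means of 2957 ± 441 in CLDN1 mAb, 2280 ± 492 in Vehicle Control and 4509 ± 677 in Regular diet (SD, n = 6, 6 and 5, as for all means below). Its log2 fold change was -0.61 ± 0.16 in CLDN1 mAb (adjusted p = 0.00599) and larger in Vehicle Control (adjusted p = 5.74e-05). The CLDN1 mAb call for Acaca ended when libraries were scaled to one total (adjusted p = 0.364) or quantile normalized (0.0859).

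Me1, malic enzyme, which supplies NADPH for synthesis, had 980, 1120 and 1759 counts in CLDN1 mAb (lowest, median, highest), 1065, 1630 and 2680 in Vehicle Control, and 7028, 13173, 9464, 8246 and 9612 in Regular diet. Both groups lay wholly below Regular diet, and here CLDN1 mAb was the lower of them: the log2 fold change was -2.97 ± 0.23 in CLDN1 mAb (adjusted p = 3.32e-08) and -2.43 ± 0.23 in Vehicle Control (adjusted p = 1.97e-07). Acss2, which makes acetyl-CoA from acetate, had 2353, 4936 and 5962 counts in CLDN1 mAb (lowest, median, highest), 1455, 2221 and 3922 in Vehicle Control, and 16761, 13802, 10548, 10900 and 10075 in Regular diet, both groups again wholly below Regular diet. Acly, ATP citrate lyase, had means of 5834 ± 595 in CLDN1 mAb, 4807 ± 714 in Vehicle Control and 18378 ± 6607 in Regular diet. Slc25a1, the mitochondrial citrate carrier, had 7526 ± 964 in CLDN1 mAb, 5472 ± 1747 in Vehicle Control and 14250 ± 5729 in Regular diet, where replicate 1 alone had 24485. For these 3 the log2 fold changes against Regular diet were -1.45, -1.57 and -0.86 in CLDN1 mAb and -2.37, -1.86 and -1.37 in Vehicle Control, all past the threshold. Relative to the hepatocyte markers Acly passed in neither CLDN1 mAb (-0.86, adjusted p = 0.0985) nor Vehicle Control (-0.59, adjusted p = 0.184), and it passed in both when Regular diet replicate 1 was also left out (-1.28 and -1.01). Slc25a1 in CLDN1 mAb missed it with quantile normalization (-0.38, adjusted p = 0.0509).

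**Figure D2:**
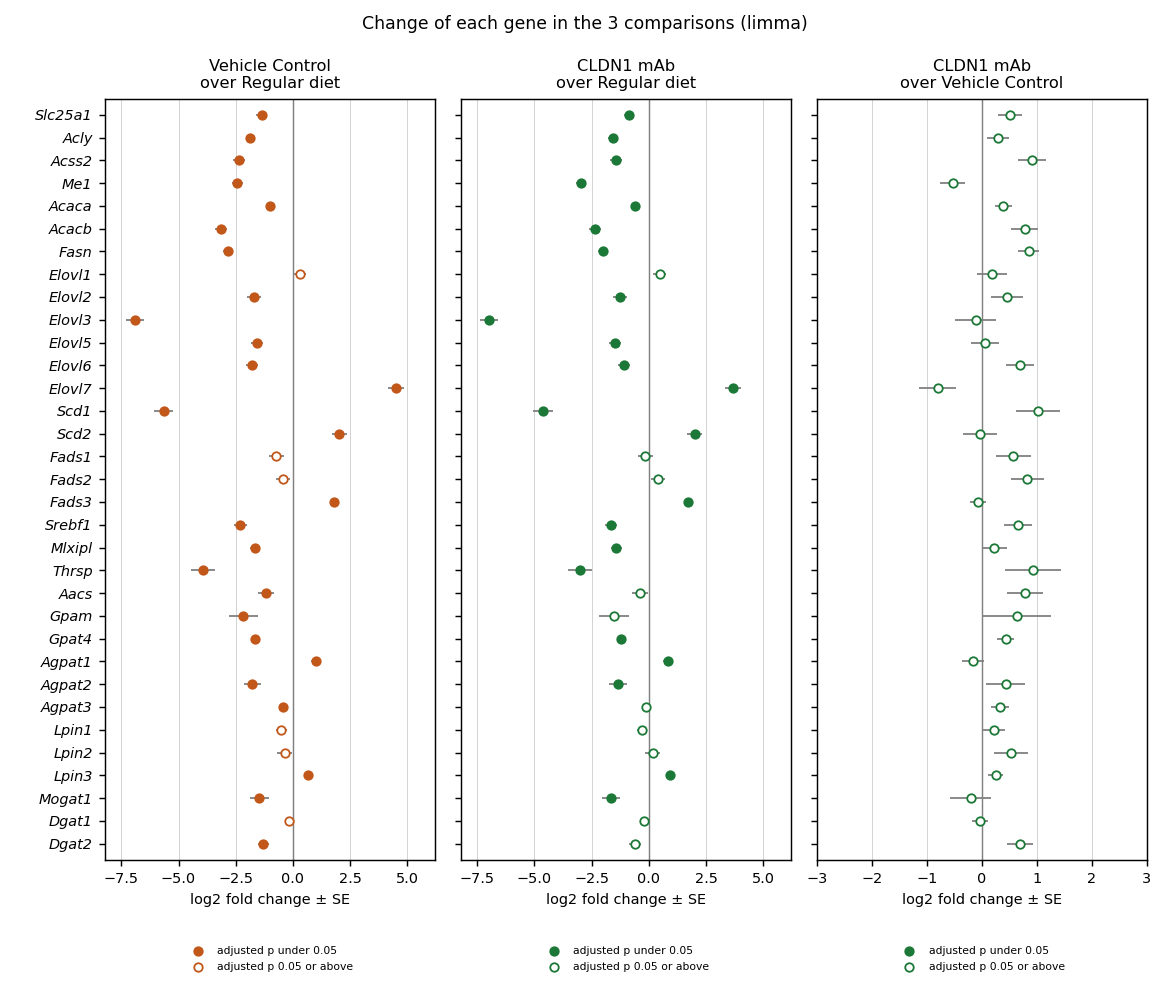
Log2 fold change with its SE (horizontal axis) for each of the 33 genes (rows) in the 3 comparisons, with filled points for an adjusted p under 0.05 in limma. The panel of CLDN1 mAb over Vehicle Control has no filled point, and 25 of its 33 points lie above 0.

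The 6 elongases went in opposite directions. Elovl3, which lengthens saturated and monounsaturated acyl chains, had 152, 334 and 817 counts in CLDN1 mAb (lowest, median, highest), 171, 409 and 655 in Vehicle Control, and 61516, 45641, 40154, 45242 and 40361 in Regular diet. The highest DEN and CDA-HFD library was thus far below the lowest Regular diet library, and the fall was 128-fold in CLDN1 mAb and 118-fold in Vehicle Control (log2 fold changes -7.00 ± 0.40 and -6.89 ± 0.40, adjusted p = 1.2e-09 and 8.66e-10). Elovl3 shares 10 exon bases with Pitx3 on the opposite strand, 0.506% of its exon length. Elovl7, another elongase of saturated chains, ran the other way, with 205, 255 and 617 counts in CLDN1 mAb, 270, 479 and 1162 in Vehicle Control, and 24.6, 18.4, 17.5, 23.4 and 24.4 in Regular diet. All 12 DEN and CDA-HFD libraries exceeded all Regular diet libraries, by 12.9-fold in CLDN1 mAb (log2 fold change 3.69 ± 0.35, adjusted p = 2.16e-07) and 22.5-fold in Vehicle Control (4.49 ± 0.35, adjusted p = 1.62e-08). Beside this, the summed cholangiocyte markers were at 39686 to 77505 in CLDN1 mAb and 44671 to 99654 in Vehicle Control, against 2513 to 4048 in Regular diet, and the summed macrophage markers at 98727 to 173914 and 61742 to 249467, against 10568 to 34798. The part of these cells in the higher levels of Elovl7, Scd2, Fads3, Agpat1 and Lpin3 was not tested.

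Elovl2 and Elovl5, which lengthen polyunsaturated fatty acids, and Elovl6, which takes palmitate to stearate, were lower in both groups. Elovl2 had 11568, 13022 and 14005 counts in CLDN1 mAb (lowest, median, highest) and 20510, 42452, 27522, 43944 and 27570 in Regular diet. In Vehicle Control it split, with 15371, 16686 and 13712 in replicates 1, 2 and 5 and 7079, 5234 and 5427 in replicates 3, 4 and 6. Elovl5 did the same, at 15291, 15430 and 12782 in replicates 1, 2 and 5 and 7671, 5853 and 5670 in replicates 3, 4 and 6, while the 6 CLDN1 mAb libraries stayed within 9056 to 12045. Hepatocyte markers split likewise: their mean log2 level was 16.8, 16.8 and 16.4 in Vehicle Control replicates 1, 2 and 5, and 15.6, 15.4 and 14.9 in replicates 3, 4 and 6. Elovl6 had means of 2399 ± 442 in CLDN1 mAb, 1614 ± 877 in Vehicle Control and 5046 ± 907 in Regular diet. In CLDN1 mAb the log2 fold changes against Regular diet were -1.26 ± 0.30 for Elovl2, -1.49 ± 0.26 for Elovl5 and -1.08 ± 0.26 for Elovl6 (adjusted p = 0.00289, 0.000211 and 0.00318). In Vehicle Control they were -1.72, -1.55 and -1.77 (adjusted p = 0.000134, 9.8e-05 and 2.22e-05). Elovl2 in CLDN1 mAb missed the threshold with quantile normalization (-0.64, adjusted p = 0.0888). Relative to the hepatocyte markers, the values of CLDN1 mAb were -0.54 for Elovl2 (adjusted p = 0.155), -0.77 for Elovl5 (0.0259) and -0.36 for Elovl6 (0.32), so only Elovl5 passed. When Regular diet replicate 1 was also left out, Elovl2 (-0.90) and Elovl5 (-1.07) passed in CLDN1 mAb and Elovl6 did not (-0.59, adjusted p = 0.0876). On the hepatocyte scale the values of Vehicle Control were -0.44, -0.28 and -0.50 in the same order, none past the threshold, and all 3 passed without that library (-0.80, -0.58 and -0.73). Elovl1, which makes very long saturated chains, had means of 4045 ± 900 in CLDN1 mAb, 3510 ± 645 in Vehicle Control and 3344 ± 2566 in Regular diet, where replicate 1 had 7930 and the others 2014 to 2305. Elovl1 shares 53 exon bases with Cdc20 on the opposite strand, 1.944% of its exon length. Elovl1 passed the threshold in neither comparison with all libraries. Without Regular diet replicate 1 its log2 fold change was 0.85 in CLDN1 mAb (adjusted p = 0.000487) and 0.66 in Vehicle Control (adjusted p = 0.00283). It also passed with the same total per library, at 0.92 in CLDN1 mAb and 0.91 in Vehicle Control. The median of all genes was then 0.44 and 0.66, with 37.9% and 50.4% of all genes called higher.

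**Figure D3:**
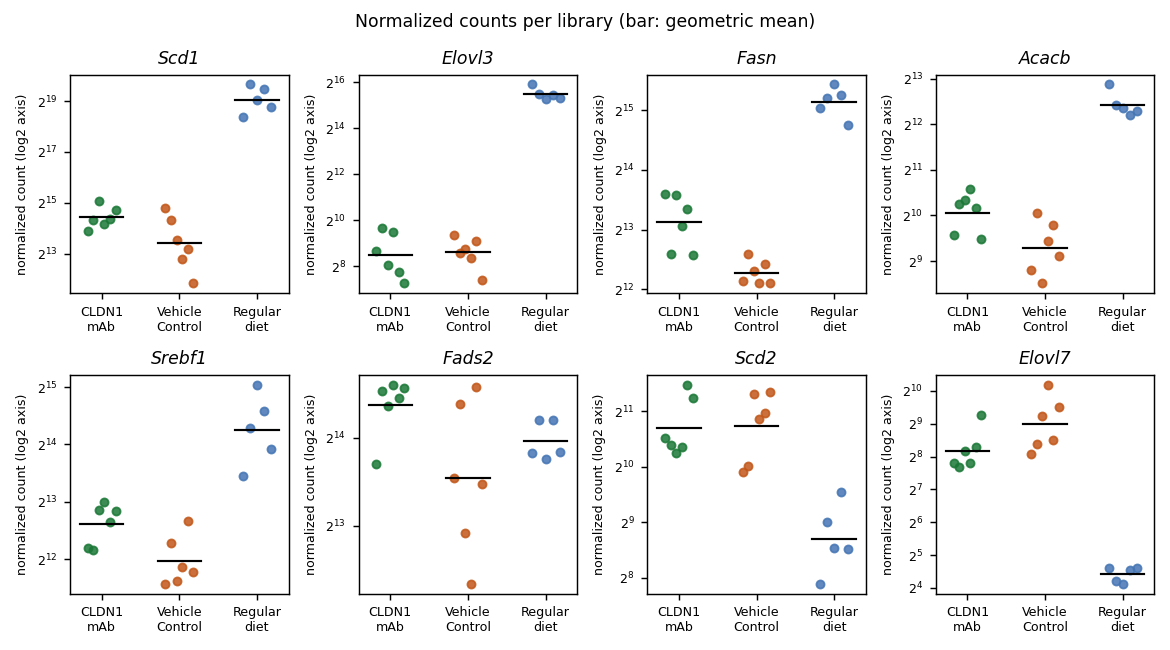
Normalized counts of 8 genes in every library (points, log2 axis) with the geometric mean of each group (bar), for CLDN1 mAb, Vehicle Control and Regular diet from left to right. Scd1, Elovl3, Fasn, Acacb and Srebf1 lie below Regular diet in all 12 DEN and CDA-HFD libraries, Scd2 and Elovl7 above it, and Fads2 overlaps between all groups.

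Stearoyl-CoA desaturases place the first double bond in a saturated chain, and Scd1 and Scd2 moved apart. Scd1, the main form in liver, had 15344, 20984 and 34678 counts in CLDN1 mAb (lowest, median, highest), 3649, 10580 and 28556 in Vehicle Control, and 336738, 825084, 533830, 733269 and 442808 in Regular diet. No DEN and CDA-HFD library reached a level near Regular diet, and Vehicle Control spread widest. Scd1 was 24.6-fold lower in CLDN1 mAb and 50.2-fold lower in Vehicle Control (log2 fold changes -4.62 ± 0.42 and -5.65 ± 0.42, adjusted p = 1.47e-07 and 1.07e-08). Scd2, a form best known from brain, had 1209, 1402 and 2844 counts in CLDN1 mAb, 957, 1926 and 2610 in Vehicle Control, and 238, 512, 373, 744 and 365 in Regular diet. It was higher without overlap in both groups (adjusted p = 9.36e-05 in CLDN1 mAb and 5.58e-05 in Vehicle Control, where the log2 fold change was 2.03 ± 0.33). Scd1 and Scd2 are close paralogs, and how the authors' counting divided shared reads was not given.

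Fads2 and Fads1, the delta-6 and delta-5 desaturases of polyunsaturated fatty acid synthesis, did not pass the threshold in any comparison. Fads1 had 17221, 21659 and 24487 counts in CLDN1 mAb (lowest, median, highest) and 27718, 24608, 19738, 27417 and 19986 in Regular diet. In Vehicle Control it had 24708, 31398 and 18861 in replicates 1, 2 and 5 and 10703, 6016 and 8779 in replicates 3, 4 and 6, the same split into replicates 1, 2 and 5 and replicates 3, 4 and 6 as for Elovl2 and Elovl5. The log2 fold change of Fads1 was -0.16 ± 0.33 in CLDN1 mAb (adjusted p = 0.736) and -0.73 ± 0.33 in Vehicle Control (adjusted p = 0.0738), the last passing without Vehicle Control replicate 1 (-0.89, adjusted p = 0.0296) or 2 (-0.96, adjusted p = 0.0125). Fads2 had means of 21607 ± 4299 in CLDN1 mAb, 13699 ± 7647 in Vehicle Control and 16161 ± 2489 in Regular diet, and its log2 fold changes of 0.40 ± 0.32 and -0.43 ± 0.32 in CLDN1 mAb and Vehicle Control had adjusted p of 0.341 and 0.282. With the same total per library Fads2 passed in CLDN1 mAb (0.84), and it was above 0 in Vehicle Control (0.20). The median of all genes was then 0.44 in CLDN1 mAb and 0.66 in Vehicle Control. Fads3, a desaturase that acts on sphingoid bases, had 1274, 1472 and 1851 counts in CLDN1 mAb, 1099, 1608 and 1972 in Vehicle Control, and 486, 457, 511, 374 and 452 in Regular diet. All 12 libraries were above Regular diet, with log2 fold changes of 1.71 ± 0.15 and 1.78 ± 0.15 in CLDN1 mAb and Vehicle Control (adjusted p = 8.74e-08 and 3.94e-08). The 3 Fads genes lie side by side on chromosome 19, from 10041569 (start of Fads3) to 10196877 (end of Fads1) in GRCm38, and Fads3 alone of them passed the threshold.

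All 3 regulators were lower in both groups, beside 14.1% of all genes in CLDN1 mAb and 20.7% in Vehicle Control. Srebf1, which encodes SREBP-1, had 4577, 6861 and 8217 counts in CLDN1 mAb (lowest, median, highest), 3043, 3615 and 6459 in Vehicle Control, and 11180, 19926, 33664, 24562 and 15516 in Regular diet. Its log2 fold change was -1.64 ± 0.27 in CLDN1 mAb and -2.29 ± 0.27 in Vehicle Control (adjusted p = 8.62e-05 and 1.58e-06). Mlxipl, which encodes ChREBP, had means of 8003 ± 1786 in CLDN1 mAb, 7019 ± 2101 in Vehicle Control and 21510 ± 4594 in Regular diet (log2 fold changes -1.43 ± 0.24 and -1.66 ± 0.24, adjusted p = 0.000105 and 1.52e-05). Relative to the hepatocyte markers Mlxipl passed in neither CLDN1 mAb (-0.71, adjusted p = 0.0771) nor Vehicle Control (-0.38, adjusted p = 0.26), and it passed in both when Regular diet replicate 1 was also left out (-1.02 and -0.70). The table gives 1 value per gene, so transcripts from the 2 Mlxipl starts could not be separated. Thrsp, or Spot 14, a thyroid hormone-responsive cofactor of lipogenesis, varied more within groups than Srebf1 or Mlxipl: 402, 1381 and 3011 counts in CLDN1 mAb, 161, 829 and 1494 in Vehicle Control, and 17729, 7920, 18173, 6458 and 6024 in Regular diet. Every DEN and CDA-HFD library was still below Regular diet, with log2 fold changes of -3.02 ± 0.53 in CLDN1 mAb and -3.95 ± 0.53 in Vehicle Control (adjusted p = 0.000197 and 8.3e-06).

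Among 35 other regulators of SREBP, ChREBP, LXR and AMPK, 10 were lower (28.6%, against 14.1% of all genes) and 3 higher (8.57%, against 24.8%) in CLDN1 mAb, and 16 lower (45.7%, against 20.7%) and 5 higher (14.3%, against 29.8%) in Vehicle Control (median log2 fold changes -0.27 and -0.47). Scap, the escort that carries SREBP to the Golgi, had means of 3279 ± 324 in CLDN1 mAb, 2521 ± 623 in Vehicle Control and 6517 ± 245 in Regular diet, past the threshold in both. Mid1ip1, a partner of Spot 14 that promotes assembly of acetyl-CoA carboxylase into filaments, had log2 fold changes of -1.71 ± 0.19 in CLDN1 mAb and -1.54 ± 0.19 in Vehicle Control. Nr0b2, which encodes the repressor SHP, had -1.93 ± 0.32 and -2.67 ± 0.32 in the same order. Nfya, a subunit of NF-Y, which binds the CCAAT box, was higher, at 0.62 ± 0.21 in CLDN1 mAb and 1.11 ± 0.21 in Vehicle Control, as was the AMPK subunit Prkab2, at 1.55 ± 0.23 and 2.06 ± 0.23.

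Of the 11 genes of triglyceride assembly, 3 were lower (27.3%, against 14.1% of all genes) and 2 higher (18.2%, against 24.8%) in CLDN1 mAb, and 6 were lower (54.5%, against 20.7%) and 2 higher (18.2%, against 29.8%) in Vehicle Control. The higher share was thus below that of all genes in both. Glycerol-3-phosphate acyltransferases add the first chain: Gpam at mitochondria and Gpat4 at the endoplasmic reticulum. Gpam had 502 to 3988 counts in CLDN1 mAb, 869 to 2581 in Vehicle Control, and 793, 14629, 11094, 10430 and 8404 in Regular diet. Regular diet replicate 1 was thus within the CLDN1 mAb range and below every Vehicle Control library. Its log2 fold change was -1.53 ± 0.65 in CLDN1 mAb (adjusted p = 0.0712) and -2.16 ± 0.65 in Vehicle Control (adjusted p = 0.0101), and in CLDN1 mAb -2.29 without Regular diet replicate 1 (adjusted p = 0.000834). Scaling libraries to one total ended the Vehicle Control call (adjusted p = 0.0831). Gpat4 had means of 4650 ± 893 in CLDN1 mAb, 3436 ± 652 in Vehicle Control and 10803 ± 1376 in Regular diet, lower without overlap (log2 fold changes -1.23 ± 0.16 and -1.66 ± 0.16).

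The AGPAT enzymes add the second chain, and the 3 measured members differed. Agpat2, whose loss causes lipodystrophy in mice and humans, had means of 7726 ± 2993 in CLDN1 mAb, 5743 ± 2092 in Vehicle Control and 22415 ± 18552 in Regular diet, where replicate 1 had 55526 and the others 12097 to 15483. The log2 fold changes were -1.35 ± 0.38 and -1.78 ± 0.38 in CLDN1 mAb and Vehicle Control (adjusted p = 0.00851 and 0.000738). Agpat1 was higher, with 788, 944 and 1041 counts in CLDN1 mAb (lowest, median, highest), 523, 1121 and 1395 in Vehicle Control, and 744, 449, 494, 495 and 466 in Regular diet. Its groups did not overlap in CLDN1 mAb (log2 fold change 0.83 ± 0.21, adjusted p = 0.0052), whereas Vehicle Control replicate 1 was below Regular diet replicate 1 (0.99 ± 0.21, adjusted p = 0.000905). Agpat1 shares 101 exon bases with Egfl8 and Agpat2 shares 64 with Egfl7, both on the opposite strand. Agpat3 had means of 10204 ± 1306 in CLDN1 mAb, 8199 ± 1663 in Vehicle Control and 11214 ± 2534 in Regular diet, and was lower in Vehicle Control (log2 fold change -0.45 ± 0.17, adjusted p = 0.0318). That call was lost when any of 7 single libraries was left out, Regular diet replicate 1, 3 or 5 or Vehicle Control replicate 1, 3, 4 or 6 (adjusted p of 0.0532 to 0.0711), and the value turned to 0.18 with the same total per library and 0.17 with quantile normalization. Relative to the hepatocyte markers Agpat3 was called the other way, higher in Vehicle Control (0.83, adjusted p = 0.00947 in limma). On that scale the median of all genes was 1.32 and 67.7% were called higher. With the same total per library the median of all genes was 0.66.

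Lipins turn phosphatidate into diacylglycerol. Lpin3 had 552, 662 and 829 counts in CLDN1 mAb (lowest, median, highest), 496, 545 and 691 in Vehicle Control, and 386, 301, 431, 328 and 388 in Regular diet. It was higher in both without overlap (log2 fold changes 0.91 ± 0.15 and 0.66 ± 0.15, adjusted p = 9.38e-05 and 0.0013), although quantile normalization ended the Vehicle Control call (0.25, adjusted p = 0.219). Lpin1 and Lpin2 passed the threshold in no comparison. Lpin1 had means of 1737 ± 483 in CLDN1 mAb, 1482 ± 347 in Vehicle Control and 2123 ± 552 in Regular diet. Lpin2 had 3201 counts in Regular diet replicate 1 and 11262 to 12461 in the other 4, beside means of 10664 ± 3102 in CLDN1 mAb and 7212 ± 1538 in Vehicle Control. Without that library Lpin2 was lower in Vehicle Control (-0.73, adjusted p = 0.0141), as was Lpin1 (-0.68, adjusted p = 0.0105). Lpin1 in Vehicle Control also passed without Vehicle Control replicate 6 (-0.60, adjusted p = 0.0411), against -0.51 with all libraries (adjusted p = 0.0718).

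The last chain is added by diacylglycerol acyltransferases. Dgat2, the form tied to newly made fatty acids, had 12282, 16014 and 19901 counts in CLDN1 mAb (lowest, median, highest), 6241, 9070 and 19151 in Vehicle Control, and 32277, 20592, 26227, 22359 and 22755 in Regular diet. All 12 DEN and CDA-HFD libraries were below the lowest Regular diet library. In CLDN1 mAb the log2 fold change was -0.61 ± 0.24, just outside the threshold (adjusted p = 0.058), and in Vehicle Control -1.30 ± 0.24 (adjusted p = 0.000257). The CLDN1 mAb value passed without Vehicle Control replicate 2 or 3 in the shared model (adjusted p = 0.0231 and 0.044). It also passed with only CLDN1 mAb and Regular diet in the model (0.0117), with median-ratio size factors (0.0492) and with array weights (0.0313). With quantile normalization it was 0.02. Dgat1, which re-esterifies fatty acids from outside the cell, had means of 1137 ± 185 in CLDN1 mAb, 1158 ± 114 in Vehicle Control and 1341 ± 333 in Regular diet (log2 fold changes -0.22 and -0.19, adjusted p = 0.265 and 0.321). With the same total per library Dgat1 was above 0 in both, at 0.22 in CLDN1 mAb and 0.44 in Vehicle Control, the last past the threshold (adjusted p = 0.00427). Both values were below the median of all genes under that scaling, 0.44 in CLDN1 mAb and 0.66 in Vehicle Control. The shares of all genes called higher were 37.9% and 50.4%. Mogat1, a monoacylglycerol acyltransferase, was scarce, with 9.85, 17.5 and 21.5 counts in CLDN1 mAb, 13.7, 16.8 and 38.6 in Vehicle Control, and 120.4, 38.1, 77.0, 19.3 and 70.3 in Regular diet. The groups overlapped, and the log2 fold changes were -1.67 ± 0.40 in CLDN1 mAb and -1.46 ± 0.40 in Vehicle Control (adjusted p = 0.00277 and 0.00512). An opposite-strand gene, BC035947, covers 12.8% of the Mogat1 exons. Aacs, which makes acetoacetyl-CoA from ketone bodies in the cytosol, had means of 2126 ± 821 in CLDN1 mAb, 1190 ± 333 in Vehicle Control and 2970 ± 1607 in Regular diet, where single libraries ran from 1088 to 5355. Its log2 fold change was -0.38 ± 0.35 in CLDN1 mAb (adjusted p = 0.41) and -1.18 ± 0.35 in Vehicle Control (adjusted p = 0.0088), the last not past the threshold once libraries were scaled to one total (-0.55, adjusted p = 0.15).

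Of 32 other glycerolipid enzymes tested, 9 were lower (28.1%, against 14.1% of all genes) and 7 higher (21.9%, against 24.8%) in CLDN1 mAb, and 12 lower (37.5%, against 20.7%) and 7 higher (21.9%, against 29.8%) in Vehicle Control (median log2 fold changes -0.26 and -0.36). The higher shares were close to or below those of all genes. Mogat2, a second monoacylglycerol acyltransferase, had means of 323 ± 108 in CLDN1 mAb, 164 ± 49.5 in Vehicle Control and 9.36 ± 4.81 in Regular diet (log2 fold changes 5.01 ± 0.31 and 4.06 ± 0.31), the opposite direction to Mogat1. Gpat3 and Agpat4, further acyltransferases of the first and second step, were also higher, by log2 fold changes of 2.21 ± 0.26 and 2.40 ± 0.26 in CLDN1 mAb and 2.42 ± 0.26 and 2.77 ± 0.26 in Vehicle Control. Gpd1, which makes glycerol 3-phosphate, was lower, by -1.55 ± 0.25 and -1.88 ± 0.25 in the same order. Among 18 tested targets of PPARG and genes of steatosis, 8 were higher (44.4%, against 24.8% of all genes in CLDN1 mAb and 29.8% in Vehicle Control) and 5 lower (27.8%, against 14.1% and 20.7%) in each group, with median log2 fold changes of 0.60 in CLDN1 mAb and 0.81 in Vehicle Control. Cidec, a lipid droplet fusion protein, had means of 1406 ± 467 in CLDN1 mAb, 2241 ± 936 in Vehicle Control and 106 ± 27.6 in Regular diet. Of 33 tested enzymes of elongation, activation and NADPH supply, 13 were lower (39.4%, against 14.1% of all genes) and 6 higher (18.2%, against 24.8%) in CLDN1 mAb, and 18 lower (54.5%, against 20.7%) and 6 higher (18.2%, against 29.8%) in Vehicle Control (median log2 fold changes -0.45 and -0.72). G6pdx, the first enzyme of the pentose phosphate route and another source of NADPH, was higher (1.75 ± 0.24 in CLDN1 mAb and 2.01 ± 0.24 in Vehicle Control), the opposite direction to Me1.

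Between CLDN1 mAb and Vehicle Control no gene of the 33 passed the threshold (nor did any of the 18624 genes tested, 0%). At an unadjusted p under 0.05, 12 of the 33 were higher in CLDN1 mAb (36.4%, against 4.32% of all tested genes) and 2 lower (6.06%, against 3.15%). Groups overlapped for all 33, while 0.0644% of all genes were higher and 0.258% lower without overlap. The 12 were Fasn, Acaca, Acacb, Acss2, Slc25a1, Srebf1, Scd1, Elovl6, Fads2, Gpat4, Dgat2 and Aacs. The smallest unadjusted value among them was that of Fasn, whose CLDN1 mAb libraries (6140 to 12355) all exceeded the Vehicle Control mean of 5010 (log2 fold change 0.85 ± 0.19, adjusted p = 0.659 in limma). Then came Acss2 (0.91 ± 0.25, above the Vehicle Control mean in 5 of 6 libraries), Acacb (0.78 ± 0.25, in 6 of 6) and Dgat2 (0.69 ± 0.23, in 6 of 6), each with an adjusted p of 0.659. On the lower side the 4 smallest p-values were those of Elovl7 (-0.80 ± 0.33) and Me1 (-0.53 ± 0.22), both with an adjusted p of 0.659, Agpat1 (-0.16 ± 0.20, 0.828) and Mogat1 (-0.20 ± 0.38, 0.889).

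Hepatocyte markers moved with these values. Their median log2 fold change was 0.56 in CLDN1 mAb against Vehicle Control, with 0 of 15 past the threshold, beside 0.43 over the 33 genes and -0.05 over all genes; their part in the differences was not tested. Relative to the hepatocyte markers, the median over the 33 genes was -0.13 and 12 of 33 were above 0. Fasn stayed higher by 0.29, Acss2 by 0.36 and Scd1 by 0.47 on that scale, none past the threshold. With limma array weights, which count less the libraries that differ most from their group, 16 of the 33 were higher (48.5%, against 13.5% of all genes) and 3 lower (9.09%, against 15%): Elovl7, Me1 and Agpat1. The weights also passed 2512 genes of the whole table as higher and 2798 as lower, and Vehicle Control replicates 1 and 2 weighed 0.175 and 0.383. Leaving out the library of lowest weight in each group in place of weighting gave 0 of 33.

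Ratios of genes that act at the same or paired steps are not changed by multiplying a library by a factor. The part of the mix of cells in them was not tested. Within Vehicle Control the log2 ratio of Scd2 to Scd1 was -4.90, -4.29 and -2.21 in replicates 1, 2 and 5. In replicates 3, 4 and 6, where hepatocyte markers were lower, it was -2.23, -1.92 and -0.48. For 8 pairs in 3 comparisons, 24 two-sided exact permutation tests over libraries were made and adjusted together, and 6 passed 0.05. The mean log2 ratio of Scd2 to Scd1 was -3.73 ± 0.65 in CLDN1 mAb, -2.67 ± 1.63 in Vehicle Control and -10.35 ± 0.27 in Regular diet (SD; both against Regular diet p = 0.00216, the smallest p that 6 against 5 can give, adjusted p = 0.013 by exact permutation). That of Acacb to Acaca was -1.45 ± 0.50 in CLDN1 mAb, -1.84 ± 0.49 in Vehicle Control and 0.30 ± 0.21 in Regular diet, with the same p-values by the exact permutation test. Dgat1 to Dgat2 was -3.84 ± 0.30 in CLDN1 mAb, -3.11 ± 0.48 in Vehicle Control and -4.22 ± 0.14 in Regular diet; the exact permutation test passed for Vehicle Control against Regular diet (adjusted p = 0.0173) and not for CLDN1 mAb against Vehicle Control (difference -0.73, adjusted p = 0.0519) or Regular diet (0.38, adjusted p = 0.0584).

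One ratio passed the threshold between CLDN1 mAb and Vehicle Control. Elovl5 to Elovl6 had a mean log2 ratio of 2.08 ± 0.24 in CLDN1 mAb, 2.71 ± 0.33 in Vehicle Control and 2.49 ± 0.31 in Regular diet. The CLDN1 mAb libraries ran from 1.72 to 2.47 and the Vehicle Control libraries from 2.23 to 3.09, so they overlapped in part, and the difference was -0.63 (exact permutation p = 0.00433, adjusted p = 0.0173). The ratios Gpat4 to Gpam, Lpin2 to Lpin1, Fads2 to Fads1 and Srebf1 to Mlxipl passed in no comparison (adjusted exact permutation p of 0.104 to 0.697).

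**Figure D4:**
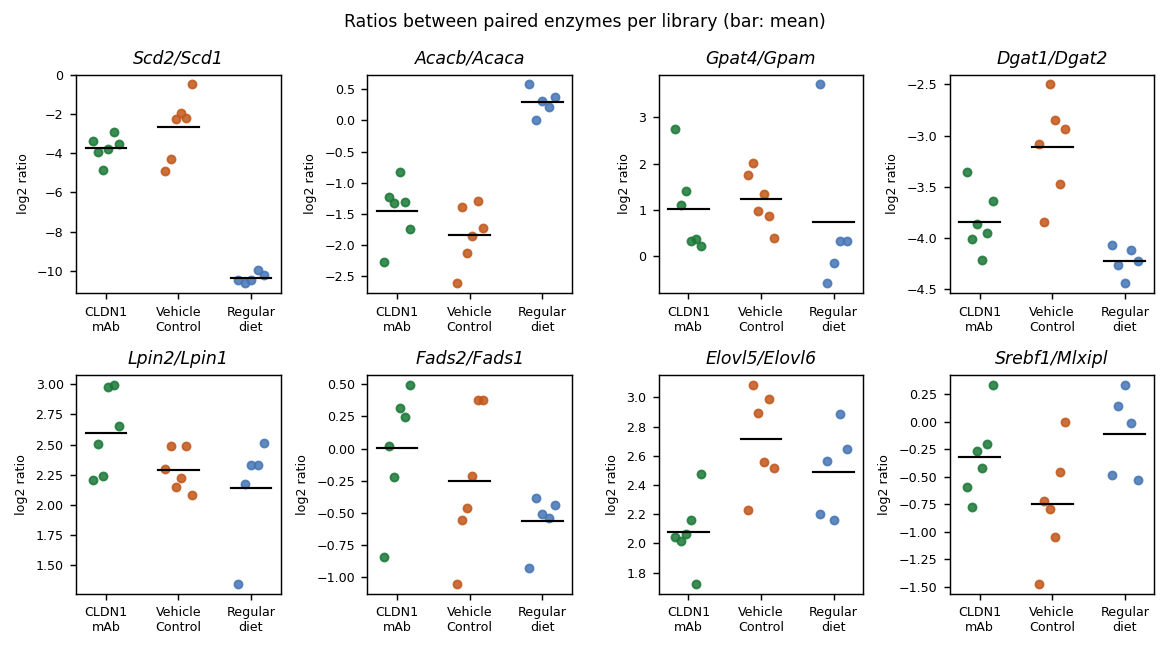
Log2 ratio of normalized counts for 8 pairs of genes in every library (points) with the group mean (bar), for CLDN1 mAb, Vehicle Control and Regular diet from left to right. Scd2/Scd1 and Acacb/Acaca separate Regular diet from both other groups without overlap, Elovl5/Elovl6 is lowest in CLDN1 mAb, and Gpat4/Gpam in Regular diet has 1 library, replicate 1, at 3.71.

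Per kb of exon (the union of a gene's exons), which allows levels of different genes to be set side by side, the 33 genes summed to 48243 ± 4749 in CLDN1 mAb, 35797 ± 11823 in Vehicle Control and 225663 ± 39801 in Regular diet. Scd1 alone was 9.67 ± 2.48% of that sum in CLDN1 mAb, 7.29 ± 3.78% in Vehicle Control and 51.0 ± 10.5% in Regular diet, where it ranked first. Without Scd1 the sums were 43554 ± 4069, 33047 ± 10574 and 108258 ± 15663 in the same order. Elovl3 ranked 2 of 33 in Regular diet and 27 of 33 in each of the others. Fads2 ranked first in CLDN1 mAb (6557 per kb) and in Vehicle Control (4157 per kb), and 10 in Regular diet (4905 per kb), followed in both DEN and CDA-HFD groups by Dgat2. The first rank depended on the length used: per kb of the longest transcript Dgat2 ranked first in CLDN1 mAb (7230, Fads2 6859) and Fads1 in Vehicle Control (4839, Fads2 4349). Neighbours in these orders, such as Fads2, Dgat2 and Fads1 in Vehicle Control, differed by less than their spread over libraries. At the low end stood Mogat1, at 10.9 per kb in CLDN1 mAb, 13.2 in Vehicle Control and 41.7 in Regular diet, and Elovl7, at 77.6, 143.1 and 5.40 in that order.

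**Figure D5:**
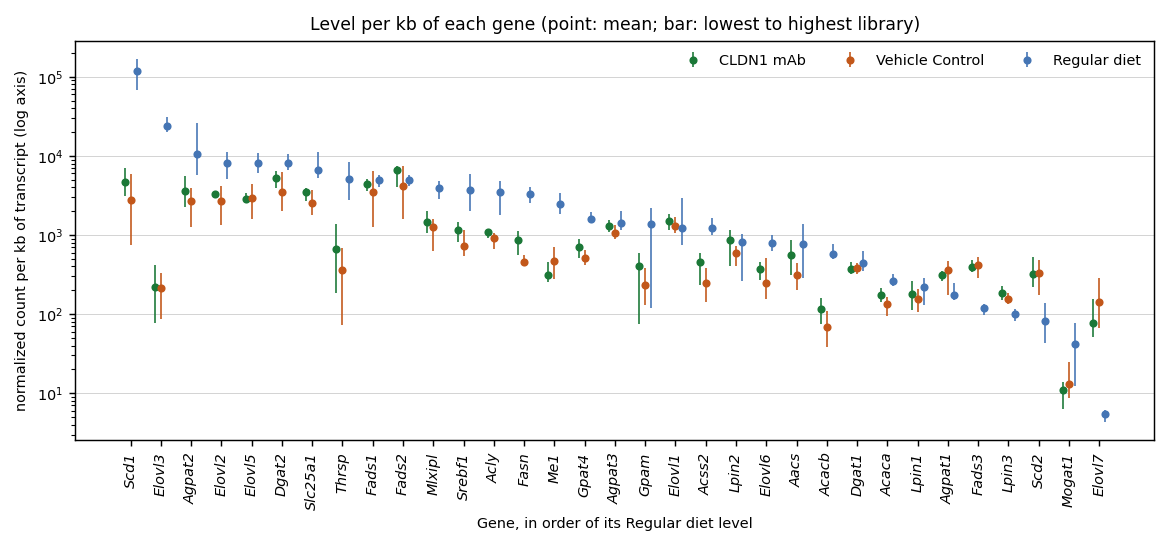
Normalized count per kb of transcript, taken as the union of exons (log axis) of each gene, in order of its Regular diet level, with the mean (point) and the lowest to highest library (bar) of CLDN1 mAb, Vehicle Control and Regular diet. Scd1 and Elovl3 lead in Regular diet and drop by far in the other groups, while the ranges of the 3 groups overlap for Fads1, Fads2, Agpat3 and Dgat1.

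Relative to hepatocyte markers, a part of the lower genes stayed lower. Against Regular diet, 7 genes were lower and 5 higher in both DEN and CDA-HFD groups in the main model, relative to hepatocyte markers, and on that scale without Regular diet replicate 1. On that scale without that library, 13 of the 33 were lower (39.4%, against 2.66% of all genes) and 6 higher (18.2%, against 26.8%) in CLDN1 mAb. In Vehicle Control 14 were lower (42.4%, against 2.77%) and 8 higher (24.2%, against 58%). These shares are of single comparisons, and the share of all genes meeting every condition together is not given here. The 7 were Scd1, Elovl3, Thrsp, Fasn, Acacb, Acss2 and Me1, and the 5 were Elovl7, Scd2, Fads3, Lpin3 and Agpat1. On the hepatocyte scale the log2 fold changes in CLDN1 mAb were -3.91 for Scd1, -6.29 for Elovl3, -2.30 for Thrsp, -1.64 for Acacb, -1.29 for Fasn, -0.73 for Acss2 and -2.25 for Me1. In Vehicle Control they were -4.38, -5.61, -2.67, -1.86, -1.58, -1.09 and -1.16 in the same order of genes. Srebf1 was not past the threshold on that scale in CLDN1 mAb (-0.92, adjusted p = 0.103) but was in Vehicle Control (-1.02, adjusted p = 0.0418), and passed in both without Regular diet replicate 1 (-1.33 and -1.43). Slc25a1, Acaca, Dgat2, Gpat4, Mogat1 and Aacs were past it in neither group, with or without that library. Fads1 and Fads2 were called higher on that scale, by 0.55 and 1.12 in CLDN1 mAb and 0.54 and 0.85 in Vehicle Control. Their calls ended without Regular diet replicate 1 (adjusted p of 0.0605 to 0.126). With all libraries, the median of all genes on that scale was 0.72 in CLDN1 mAb and 1.32 in Vehicle Control. Of these Fads values only that of Fads2 in CLDN1 mAb exceeded it. The shares of all genes called higher were 32.4% and 67.7%. Elovl1 was also called higher on that scale in both groups, as were Agpat3 and Dgat1 in Vehicle Control. Agpat3 (0.83) and Dgat1 (1.09) were there below the median of all genes. The calls of Elovl1, Agpat3 and Dgat1 remained without Regular diet replicate 1. The hepatocyte markers were themselves lower in 5 of 15 cases in CLDN1 mAb (33.3%, against 14.1% of all genes) and 13 of 15 in Vehicle Control (86.7%, against 20.7%). Their median log2 fold changes were -0.69 and -1.33 in the same order.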

How the data were processed

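RNA-seq of total RNA from 17 mouse livers was quantified by the authors, who deposited 1 table of normalized counts per gene (a signal, not whole counts), made with cuffnorm; the submitters' processing notes name Cufflinks 2.2.1 and mm10. Aligner, annotation, strand setting and scaling option are not given in the sources used here. Steps between low values gave each library's value of 1 fragment (97.8 to 98.3% of low values whole within 0.05 of a step, up to 20 steps), and from it the depth. Of 52545 identifiers, 52398 (99.72%) matched a symbol and 17421 were at 0 in every library. No value column was left unused (0). Values were taken as log2(value + 1), genes with at least 10 in at least 5 libraries were kept, and the 3 groups were fitted together with limma 3.58.1 (R 4.3.3, trend), with Benjamini-Hochberg adjustment and a threshold of 0.05; fold changes of low genes are understated by the pseudocount. The script was tested on simulated data. Ratios were tested by exact permutation (scipy 1.17.1). The alternatives covered scaling, pseudocount, filter, samples in the model, weights, a replicate block, zeros as missing, library codes and leaving out each library. The members and lists were chosen with earlier results of these data known. Values by library (the lowest, median and highest in groups of 6, and all values in Regular diet) are given for the up to 6 members per direction with the largest called change in each comparison or, where none was called, the 4 with the smallest p per direction, and for other lists up to 3 per direction with the smallest p were eligible to be named. Exons of some members, such as Acss2 and Mlxipl, overlap an opposite-strand gene, which counting without strand could not separate.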

Additional observations from a re-analysis of the deposited data

Results flagged for a closer look

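Of 123 sets of values tested by Dixon's ratio, 16 held a library far from the rest of its group, where chance gives about 1 in 20. Regular diet replicate 1 accounted for 8 of them: it was highest for Slc25a1 (24485 normalized counts, others 11331 to 12100), Elovl1 (7930), Agpat1 (744) and Agpat2 (55526), lowest for Gpam (793) and Lpin2 (3201), and apart in the log2 ratios Gpat4/Gpam (3.71) and Fads2/Fads1 (-0.93). CLDN1 mAb replicate 1 was lowest of its group for Fads2 (13291), Gpam (502) and Lpin2 (4986), the last 2 being genes for which Regular diet replicate 1 was also lowest. The others were Acss2 in CLDN1 mAb replicate 6 (2353), Mogat1 in CLDN1 mAb replicate 5 (9.85), Acly in Vehicle Control replicate 4 (3476), Agpat1 in Vehicle Control replicate 1 (523) and Gpat4 in Regular diet replicate 4 (13207).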

How the results depend on the processing

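Across the alternatives run, the 7 lower and 5 higher genes named last in the report kept their calls against Regular diet, with the exception of Lpin3 in Vehicle Control under quantile normalization. Scaling to the same total moved the median of all genes to 0.44 in CLDN1 mAb and 0.66 in Vehicle Control against Regular diet, and to -0.23 between CLDN1 mAb and Vehicle Control, and raised the higher genes of the 33 in CLDN1 mAb against Regular diet to 8 (24.2%, against 37.9% of all genes), as did quantile normalization (8, against 19.1%) and hepatocyte centring (8, with 9 lower, against 32.4% and 1.8%). Hepatocyte centring gave 9 lower and 10 higher in Vehicle Control (27.3% and 30.3%, against 2.06% and 67.7%), and a median of -0.13 between CLDN1 mAb and Vehicle Control. Array weights gave 16 higher and 3 lower between those groups (48.5% and 9.09%, against 13.5% and 15% of all genes). The cause of these shifts was not tested.

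With the same total per library, log2 fold changes turned round in CLDN1 mAb against Regular diet for Fads1 (0.28), Aacs (0.057), Agpat3 (0.32), Lpin1 (0.15) and Dgat1 (0.22), in Vehicle Control against Regular diet for Fads2 (0.20), Agpat3 (0.18), Lpin1 (0.12), Lpin2 (0.27) and Dgat1 (0.44), and between CLDN1 mAb and Vehicle Control for Elovl5 (-0.12). Quantile normalization turned Fads1 (0.47), Agpat3 (0.31) and Dgat2 (0.018) in CLDN1 mAb, Fads1 (0.059), Fads2 (0.28), Agpat3 (0.17) and Lpin2 (0.18) in Vehicle Control, and Elovl5 (-0.12) between them. Hepatocyte centring turned Acaca (0.11), Fads1 (0.55), Aacs (0.33), Agpat3 (0.60), Lpin1 (0.43), Dgat1 (0.49) and Dgat2 (0.11) in CLDN1 mAb, and Acaca (0.27), Fads1 (0.54), Fads2 (0.85), Aacs (0.10), Agpat3 (0.83), Lpin1 (0.77), Lpin2 (0.92) and Dgat1 (1.09) in Vehicle Control. Between CLDN1 mAb and Vehicle Control it turned Acaca (-0.17), Acly (-0.27), Slc25a1 (-0.048), Elovl1 (-0.36), Elovl2 (-0.10), Elovl5 (-0.49), Mlxipl (-0.33), Gpat4 (-0.12), Agpat2 (-0.13), Agpat3 (-0.23), Lpin1 (-0.34), Lpin2 (-0.033) and Lpin3 (-0.31). Array weights turned Lpin2 in CLDN1 mAb against Regular diet (-0.0061) and Elovl3 between CLDN1 mAb and Vehicle Control (0.19), as did leaving out the library of lowest weight in each group (-0.0027 and 0.0037).

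Leaving out each library in turn, values crossed 0 in CLDN1 mAb against Regular diet for Agpat3 (-0.19 to 0.0035) and Lpin2 (-0.21 to 0.37), and between CLDN1 mAb and Vehicle Control for Scd2 (-0.20 to 0.089), Elovl3 (-0.35 to 0.13), Elovl5 (-0.088 to 0.20), Fads3 (-0.17 to 0.0018) and Dgat1 (-0.094 to 0.0081). Differences in log2 ratio ranged, in Vehicle Control against Regular diet, from 0.17 to 1.24 for Gpat4/Gpam, which passed without Regular diet replicate 1, and from -0.053 to 0.24 for Lpin2/Lpin1. In CLDN1 mAb against Regular diet they ranged from -0.043 to 1.04 for Gpat4/Gpam, from -0.49 to -0.31 for Elovl5/Elovl6, which passed without Regular diet replicate 1 or 3 or CLDN1 mAb replicate 6, from 0.47 to 0.73 for Fads2/Fads1, which passed without CLDN1 mAb replicate 1, and from 0.29 to 0.46 for Dgat1/Dgat2, which passed without CLDN1 mAb replicate 4. Dgat1/Dgat2 between CLDN1 mAb and Vehicle Control ranged from -0.87 to -0.60 and passed without Vehicle Control replicate 2 or CLDN1 mAb replicate 1.

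Same-numbered libraries did not consistently deviate together (correlations from -0.34 to 0.66), so the numbers were not taken as pairs. Some did: Vehicle Control with CLDN1 mAb replicate 6 (0.66) and Regular diet with CLDN1 mAb replicate 1 (0.59) had the highest correlations of any libraries from different groups. With a replicate block, 19 of the 33 were lower (57.6%, against 13.8% of all genes) and 5 higher (15.2%, against 23.7%) in CLDN1 mAb against Regular diet. In Vehicle Control against Regular diet 22 were lower (66.7%, against 20.4%) and 5 higher (15.2%, against 29%). Between CLDN1 mAb and Vehicle Control the count was 0 of the 33 and 0 of all genes. Gpam in CLDN1 mAb (adjusted p = 0.0068) and Lpin1 in Vehicle Control (0.00997) passed under the block, and Agpat3 in Vehicle Control did not (0.0778). The Elovl5/Elovl6 difference of -0.63 had an exact adjusted p of 0.125 under the block. CLDN1 mAb was below Vehicle Control in every same-numbered pair for this ratio. Its exact p before adjustment was therefore the smallest that 6 pairs can give, so missing the threshold here cannot be read against the difference. The exact swap of 5 pairs against Regular diet, whose smallest p is 0.0625, was not run.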
